A study of Rattus norvegicus with 6 samples.

Results

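Pecam1, Vwf, Cav1, Tek, Tie1, Thbd and Ocln, genes by which brain endothelium is commonly recognised, were followed across 6 microarrays of rat brain capillaries. They were taken as every probe set that the annotation of the RG_U34A chip assigned to one of these 7 genes alone. It held 9 such probe sets for 5 of the genes, out of 8740 gene probe sets and 4736 named genes in the series. Tek and Tie1, the receptor tyrosine kinases of the angiopoietin system, had none, so no level is given for them. The capillaries came from stroke-prone spontaneously hypertensive rats (SHRSP), 6 weeks old, a strain that develops severe hypertension and strokes. A pair of arrays each stood for a control group, for rats given lisinopril at 6 mg/kg per day by the ACEI label (an inhibitor of the enzyme that makes angiotensin II) and for rats given olmesartan at 4 mg/kg per day by the ARB label (a blocker of the angiotensin II receptor). The labels also name 1% NaCl, without saying which groups received it, and they do not state the number of animals behind an array or how the capillaries were isolated. Where arrays are not stated to be separate animals, the p-values measure only the spread between these 6 samples, which may be technical.

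Endothelial cells line the capillary and, in the brain, form the blood-brain barrier. PECAM-1 is an adhesion molecule at the contacts between endothelial cells, and occludin is a membrane protein of the tight junctions that seal those contacts. Caveolin-1 coats caveolae, the small membrane pits that carry vesicle traffic, which brain endothelium keeps sparse. Von Willebrand factor is the platelet-binding protein that endothelium stores and releases, and thrombomodulin is the thrombin receptor on its surface that turns thrombin towards activating protein C. Such genes are used to recognise endothelium, but the RNA of a whole capillary preparation mixes cell types. A lower level in it cannot be told apart between fewer endothelial cells and less RNA of that gene per cell.

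The arrays did not form 3 even pairs. Control 2 stood apart: its 3' to 5' signal ratio for Gapdh, a measure of how complete the labelled RNA is, was 7.31 against 0.933 to 1.59 on the other arrays, and its 3' beta-actin probe set read 2329. The same ratio for beta-actin was 3.15 on control 2, 2.05 and 1.65 on ARB 1 and ARB 2, and 1.04 to 1.35 on control 1 and the ACEI arrays, so by this measure the ARB arrays also stood between control 2 and the rest. The 3' beta-actin probe set read 5257 and 5662 on the ARB arrays and 22170 to 25420 on control 1 and both ACEI arrays. The run settings put control 1 and ACEI 1 on one day and chip lot and the other 4 arrays on another day and lot. The 15 control probe sets for bacterial transcripts other than the hybridisation spikes served as a reference for a signal without target. This takes those transcripts as absent from the samples, which was not checked. The 95th percentile of these probe sets was 41.2 to 165 on the control and ACEI arrays and 472 and 330.0 on ARB 1 and ARB 2. Each value below is therefore given array by array, as deposited intensity on a linear scale, and results against control are given with either control array left out.

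Pecam1 showed the widest contrast between arrays apart from Cav1. Its probe set (U77697_at) read 5538 on control 1 and 194 on control 2, 2728 on ACEI 1 and 5564 on ACEI 2, and 553 on ARB 1 and 317 on ARB 2. Control 1 and both ACEI arrays were high, while control 2 and both ARB arrays were low, so 1 control lay with the ACEI arrays and the other with the ARB arrays. The highest value was 28.7-fold the lowest. On the scale of log2(intensity + 90), used for all differences below, the group means were 10.30 ± 3.05 in control, 11.96 ± 0.71 in ACEI and 8.998 ± 0.47 in ARB (SD, n = 2 each). On ARB 2 the Pecam1 signal was under the bacterial reference, and on ARB 1 it was 1.17 times that reference.

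Cav1 was high and low on the same arrays as Pecam1. Probe set Z46614cds_at read 2918 on control 1 and 94.4 on control 2, 2300.1 and 3077 for the ACEI pair, and 292 and 173 for the ARB pair. The ratio of highest to lowest was 32.6. Both ARB values lay under the bacterial reference of their arrays, so they give only an upper bound for Cav1 there, whereas the low value of control 2 was 2.05 times its reference. The log2 means were 9.54 ± 2.85 in control, 11.43 ± 0.29 in ACEI and 8.31 ± 0.38 in ARB (SD, n = 2 each).

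As a description only, the available upstream sequence of the endothelial genes was searched for 4 short motifs on both strands. They were AGGAAG, a core bound by ETS factors, which drive endothelial genes, the related ETS core CCGGAA, the GATA factor core AGATAA and the TATA box letters TATAAA. RefSeq's promoter table for build GRCr8 held windows for Cav1, Ocln and Tie1. The 250 bases upstream of the first Cav1 start, on the + strand at chr4:46606288-46606537, are shown because Cav1 had the widest range and its window was the one of the measured genes with a match; capitals mark TTTATA, which is TATAAA on the opposite strand, 184 bases before the start.
Cav1 upstream: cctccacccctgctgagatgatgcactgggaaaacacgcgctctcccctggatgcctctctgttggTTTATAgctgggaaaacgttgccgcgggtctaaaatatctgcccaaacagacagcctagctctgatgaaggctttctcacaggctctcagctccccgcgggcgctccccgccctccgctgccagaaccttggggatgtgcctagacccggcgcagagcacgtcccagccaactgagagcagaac
None of these letters for the ETS or GATA cores was in this window, and neither the second Cav1 window nor that of Ocln held any of the 4 motifs. The Tie1 window held AGGAAG, 61 bases before its start and also on the opposite strand. Among 33469 windows of the same length, 29.5% held AGGAAG, 12.6% CCGGAA, 10.3% AGATAA and 12.9% TATAAA, so a match is common and no binding was measured here.

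Ocln was measured by 3 probe sets, which disagreed. Probe set AB016425_at read 2957 on control 1 and 303 on control 2, 2623 and 4019 for the ACEI pair, and 1087 and 835 for the ARB pair, the same high and low arrays as for Pecam1 and Cav1 over a 13.3-fold range. Probe set rc_AI638971_at spanned only 2.38-fold, with 4189.8 and 1761 on the controls, 3271 and 2961 under ACEI and 2091 and 2097 under ARB. The low arrays were again control 2 and both ARB arrays. A second probe set made from the same transcript record, rc_AI638971_g_at, read 2419.9 and 1717 on the controls, 1763 and 1137 under ACEI and 1206 and 704 under ARB. On that probe set control 2 was not low. The control 1 to control 2 difference was 2.96, 1.21 and 0.47 on the 3 Ocln probe sets in log2, a span of 2.48 for 1 gene. Such a spread was not rare: of 881 genes with 2 or more tested probe sets, 30.4% spanned more than 2 log2 units in this difference. Which part of the Ocln transcript each probe set reads was not analysed here.

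Vwf signals were weak. Probe set U50044cds_at read 618 and 164 on the controls, 531 and 187 for the ACEI pair, and 248 and 79.0 for the ARB pair. In the control and ACEI groups the first array was the higher, and both ARB values were under the bacterial reference. Its companion from the same record, U50044cds_g_at, read 596 and 49.2 on the controls, 305 and 282 under ACEI, and 272 and 477 under ARB. Both Vwf probe sets read highest on control 1. ARB 1 was under the reference on this probe set as well.

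Thbd had a pattern of its own. Probe set AF022742cds_at read 1518 and 1420.4 on the controls, 1650.4 and 921 for the ACEI pair, and 3449.8 and 2584 for the ARB pair. Both ARB arrays were the highest of the 6, and the controls lay within 1.07-fold of each other. The log2 means were 10.61 ± 0.06 in control, 10.37 ± 0.55 in ACEI and 11.59 ± 0.29 in ARB (SD, n = 2 each). The other Thbd probe set, U90121_at, ranged from 156 to 338, was under the bacterial reference on both ARB arrays and was left out of the tests with the dimmest 40% of probe sets. Its ARB readings, 156 and 169, therefore give only upper bounds to set beside the high ARB values of the first.

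**Figure D1:**
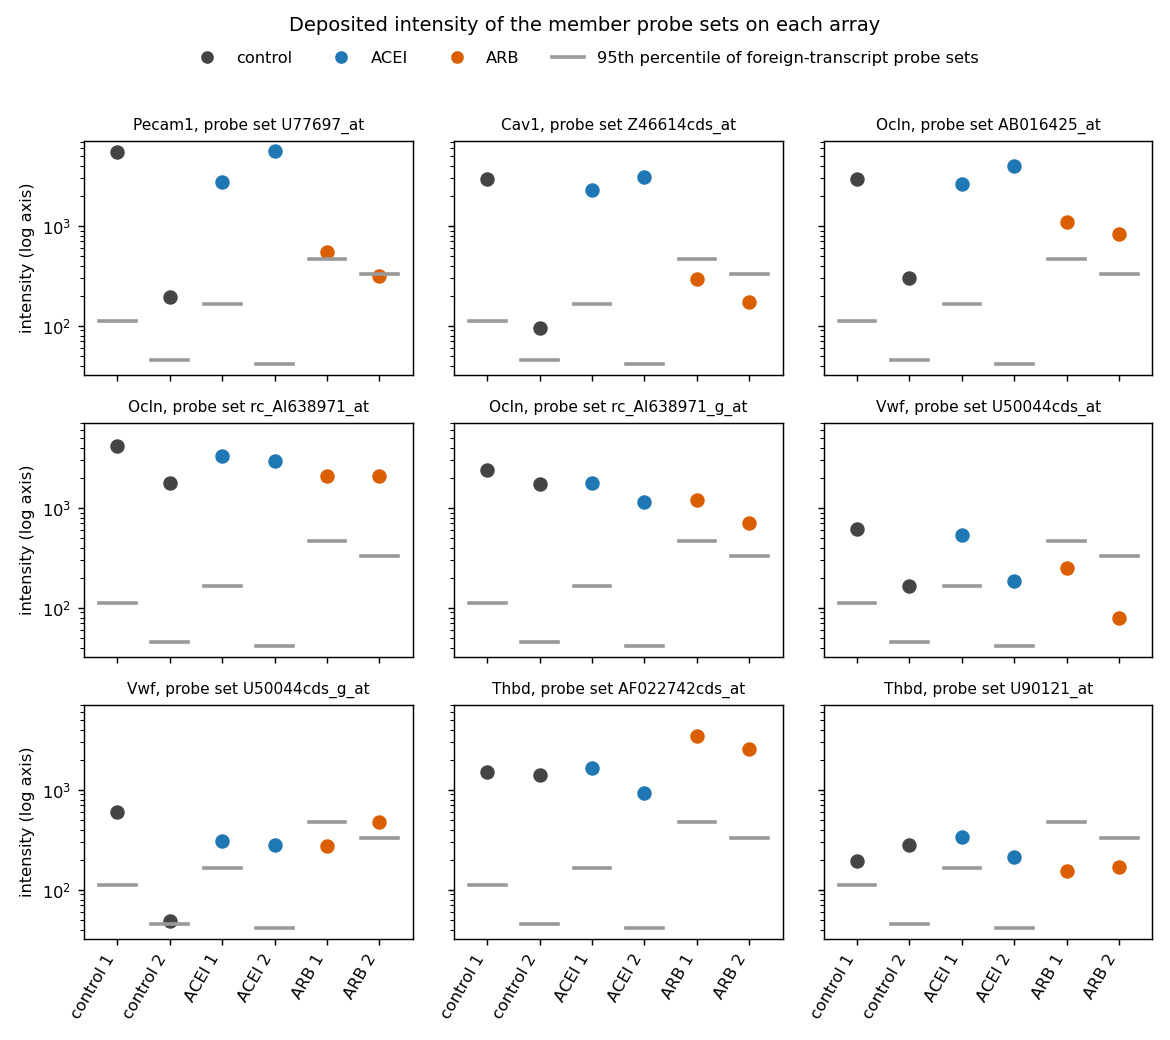
Deposited intensity (log axis) of the 9 probe sets of Pecam1, Cav1, Ocln, Vwf and Thbd on each of the 6 arrays, coloured by group, with a grey bar at the 95th percentile of 15 bacterial control probe sets on that array. Pecam1, Cav1 and Ocln AB016425_at are low on control 2 and both ARB arrays, while Thbd AF022742cds_at is highest on the ARB arrays.

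The control pair was compared first, since 2 arrays of 1 group allow no test. Of the 9 probe sets, 6 read more than 2-fold higher on control 1 on the log2(intensity + 90) scale, against 20.6% of the 5244 probe sets tested. They were Pecam1 (4.31 in log2, 28.6-fold in deposited intensity), Cav1 (4.03, 30.9-fold), Ocln AB016425_at (2.96, 9.77-fold) and rc_AI638971_at (1.21, 2.38-fold) and both Vwf probe sets (1.48 and 2.30). Values over 8-fold higher on control 1 were found in 2.88% of all tested probe sets, and those of Pecam1 and Cav1 were among them. The median over the 9 was 1.48, beside 0.00 over all tested probe sets. Beta-actin, which is no endothelial gene, differed by 3.35 in the same direction on its 3' probe set. Neither the part of RNA completeness nor that of the run day in these differences was tested. Quantile and cyclic loess normalization left the control difference at 3.89 and 4.30 for Pecam1 and at 3.73 and 3.92 for Cav1.

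**Figure D2:**
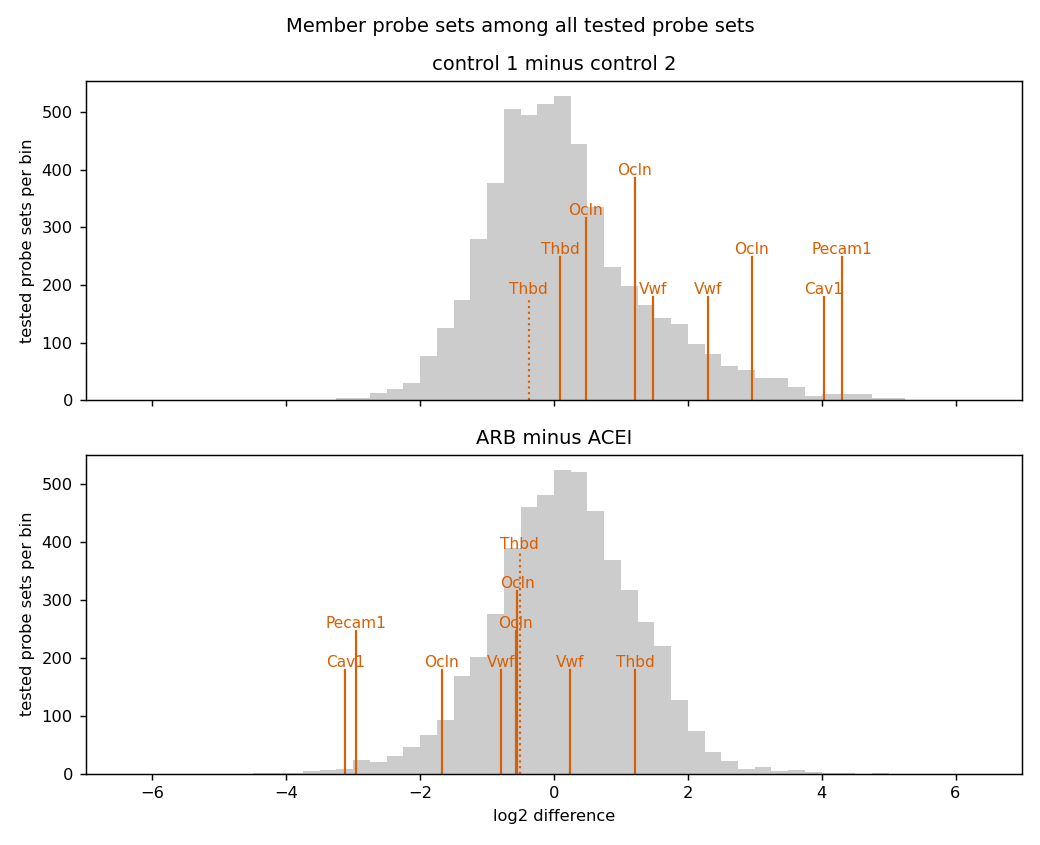
Number of tested probe sets (grey bars) by log2 difference between the 2 control arrays (top) and between the ARB and ACEI means (bottom), with the probe sets of the 5 measured endothelial genes as lines; the dotted line is Thbd U90121_at, which was not tested. Pecam1 and Cav1 lie in the upper tail at 4.31 and 4.03 in the control pair and in the lower tail at -2.97 and -3.12 for ARB minus ACEI.

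Lisinopril against control asks what less angiotensin II does to these genes in the hypertensive strain, and the answer depended on which control was used. On all 6 arrays the ACEI minus control difference was 1.66 ± 1.17 (SE) for Pecam1, 1.89 ± 1.08 for Cav1 and 1.61 ± 0.86 for Ocln AB016425_at. The other 5 tested probe sets lay between -0.50 and 0.31. All 9 probe sets overlapped between the groups, where 11.6% of all tested probe sets had both ACEI arrays above both controls and 11.9% had them below. None of the 8 tested was called by limma (adjusted p of 0.992 or above), with 0% of all 5244 probe sets called and 136 (2.59%) at an unadjusted p under 0.05. The median over the 9 was 0.19, beside -0.04 over all tested probe sets, and it was 0.79 without control 1 and -0.42 without control 2. With control 1 left out, the differences were 3.81 for Pecam1, 3.90 for Cav1 and 3.09 for Ocln AB016425_at. With control 2 left out they were -0.50, -0.13 and 0.13. Within a run day, ACEI 1 minus control 1 was -0.998 for Pecam1 and -0.33 for Cav1, and ACEI 2 minus control 2 was 4.32 and 4.10. The sign of the comparison for Pecam1 and Cav1 thus turned on the control array.

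Olmesartan against control was divided in the same way. The ARB minus control difference was -1.31 ± 1.17 (SE) for Pecam1 (adjusted p = 0.586, limma) and -1.23 ± 1.08 for Cav1 (adjusted p = 0.577). Pecam1 on ARB 1 lay between the 2 controls. Since both ARB readings of Cav1 were under the bacterial reference, its ARB level cannot be placed against control 2, and with those readings raised to the reference the Cav1 difference was -0.62. Ocln differed by -0.07 ± 0.86, -0.37 ± 0.53 and -1.07 ± 0.50 on its 3 probe sets, and Vwf by -0.83 ± 0.68 and 0.55 ± 0.73. The first Vwf difference rests on ARB readings under the reference and was 0.20 with them raised to it, and the second was -0.021 after quantile and -0.083 after cyclic loess normalization. Ocln rc_AI638971_g_at and Thbd U90121_at had both ARB readings below both controls, as had 16.8% of all tested probe sets, but those of Thbd U90121_at were under the reference and the difference was 0.58 with them raised to it. Thbd AF022742cds_at had both above, by 0.98 ± 0.48 (adjusted p = 0.327), as had 33.4% of all. None of the 8 was called, with 0% called over all 5244 and 905 (17.3%) at an unadjusted p under 0.05. Left without control 1, the ARB minus control difference was 0.85 for Pecam1 and 0.78 for Cav1, and without control 2 it was -3.46 and -3.25, all from the readings as deposited. The median over the 9 was -0.37, beside 0.18 over all tested probe sets, and it was 0.78 without control 1, -1.31 without control 2, -1.01 after quantile, -1.06 after cyclic loess normalization and -0.17 with run day as a block. Both ARB arrays shared a run day with control 2, over which they read 1.18 and 0.52 higher for Pecam1, the latter from the reading of ARB 2 under the reference. Thbd AF022742cds_at was 1.23 and 0.82 above control 2 on ARB 1 and ARB 2, and its ARB minus control difference kept its direction without either control.

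Olmesartan against lisinopril is the comparison that needs no control array. Pecam1 read 7.81-fold lower on ARB than on ACEI, a difference of -2.97 ± 1.17 (SE; 95% interval -5.64 to -0.29), and Cav1 8.68-fold lower, -3.12 ± 1.08 (-5.59 to -0.65). With all 6 arrays in the fit neither passed the threshold (limma adjusted p = 0.189 and 0.156). Over all 5244 probe sets 0% were called and 1171 (22.3%) had an unadjusted p under 0.05, among them Pecam1, Cav1 and Thbd AF022742cds_at. The spread in that fit includes the distance between the 2 controls. A fit of the 4 ACEI and ARB arrays alone, added after the values were known, gave SEs of 0.48 for Pecam1 and 0.40 for Cav1, and both were called there (adjusted p = 0.0259 and 0.0216), with 2.99% of all tested probe sets called lower on ARB and 5.82% called in either direction. With ARB signals under their arrays' bacterial reference raised to it, the group means put Cav1 5.66-fold and Pecam1 7.68-fold lower on ARB. That step limits only the part of the signal without target, not the spread between arrays.

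The remaining genes differed less between the drugs. Ocln AB016425_at was at -1.68 ± 0.86 (SE; adjusted p = 0.284, and 0.0593 in the 4-array fit), and the other Ocln probe sets at -0.55 ± 0.53 and -0.57 ± 0.50. Vwf was at -0.80 ± 0.68 and 0.24 ± 0.73. The first was -1.41 after quantile, -1.48 after cyclic loess normalization and -0.13 with run day as a block, and with its ARB readings, both under the reference, raised to it the difference was 0.23. The second was -0.36 after quantile and -0.41 after cyclic loess normalization. Thbd AF022742cds_at was 2.32-fold higher on ARB, 1.21 ± 0.48 (95% interval 0.11 to 2.32; adjusted p = 0.192, and 0.112 in the 4-array fit). Both ARB arrays read below both ACEI arrays for 5 of the 9 probe sets (Pecam1, Cav1, 2 of Ocln and Thbd U90121_at) and above for 1, where all tested probe sets gave 25.3% and 37.1%. For Thbd U90121_at the direction is not measured, as its ARB readings were under the reference and raising them to it gave 0.43. The median over the 9 was -0.57, and it was -1.12 after quantile, -1.24 after cyclic loess normalization, -0.30 with run day as a block, -0.27 without ACEI 1, -0.87 without ACEI 2 and -0.93 without ARB 1. Over all tested probe sets it was 0.15, and -0.05 and -0.01 after those 2 normalizations. Against that median of 0.15, Pecam1 was at -3.12, Cav1 at -3.27 and Thbd AF022742cds_at at 1.06. Within the shared run day, ARB 1 and ARB 2 differed from ACEI 2 by -3.14 and -3.80 for Pecam1 and by -3.05 and -3.59 for Cav1, while Thbd AF022742cds_at differed by 1.81 and 1.40. With run day as a block the ARB minus ACEI difference was -2.14 for Pecam1, -2.21 for Cav1 and 1.43 for Thbd AF022742cds_at. The beta-actin probe set was low on the same ARB arrays and its 3' to 5' ratio was higher there than on the ACEI arrays. The Gapdh ratio did not separate them, at 1.475 and 1.42 on ARB 1 and ARB 2 and 0.933 and 1.588 on ACEI 1 and ACEI 2. The part of RNA completeness in the result was not tested.

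**Figure D3:**
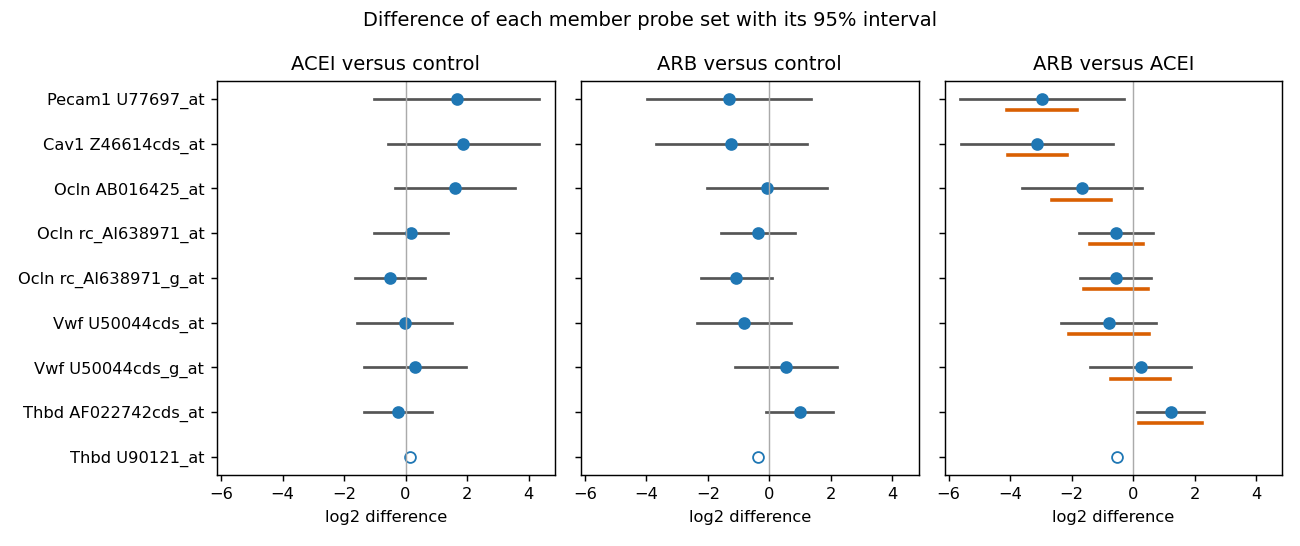
Log2 difference of each endothelial probe set in the 3 comparisons, with points at the difference of group means, grey lines for the 95% interval of the fit to all 6 arrays, orange lines for that of the fit to the 4 ACEI and ARB arrays, and an open point for Thbd U90121_at, which was not tested. Before adjustment the grey intervals for Pecam1, Cav1 and Thbd AF022742cds_at leave out 0 for ARB versus ACEI, as do the orange ones for these and Ocln AB016425_at. Against control, the grey intervals of all endothelial probe sets tested include 0.

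The probe sets most like Pecam1 over the 6 arrays were ranked by Pearson's r on the log2 scale, as a measure of likeness only, because the values fall into a high and a low set. Mpst, a mitochondrial and cytosolic sulfurtransferase, came first (r = 0.996, 6 arrays), followed among named genes by Csrp1, a LIM protein of the actin cytoskeleton (0.995), Cav1 (0.993), Rab7a, a GTPase of late endosomes (0.991), and Fcgrt, the neonatal Fc receptor (0.991). Mpst and Rab7a, like Cav1, were under the bacterial reference on both ARB arrays. Cav1 was number 5 of 5243 probe sets compared. The likeness was not rare, as 300 probe sets (5.72%) had an r over 0.9. Ocln reached 0.960, 0.930 and 0.438 on its 3 probe sets, Vwf 0.673 and 0.530, and Thbd AF022742cds_at -0.575.

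The partners of these genes were read from lists with 1 probe set per gene, the brightest, and no gene in them was called in the fit to all 6 arrays. Counts of lower and higher genes use the readings as deposited, also those under the reference. Over all tested probe sets 43.5% were lower on ARB than on ACEI, so a count near that share does not set a list apart. Of 20 endothelial surface and adhesion genes 10 were measured, and 6 of them were lower and 4 higher on ARB than on ACEI. Icam1, Itgb1 and Cd9 were the brightest, with ARB minus ACEI differences of -0.11, -0.43 and -1.78. In the 4-array fit Cd9, a tetraspanin, and Icam2, an adhesion molecule of resting endothelium, were called lower (-1.78, adjusted p = 0.0429, and -1.84, adjusted p = 0.0452, limma). Icam2 read 1109 and 1019 on the controls, 894 and 1253 under ACEI, and 208 and 257 under ARB, so control 2 read close to control 1. Both ARB readings of Icam2 were under the reference, and with them raised to it the group means put Icam2 2.37-fold lower on ARB than on ACEI. Kdr, the main receptor for vascular endothelial growth factor, read 890.0 and 1085 on the controls and had an ARB minus ACEI difference of -0.25. Flt1, its sister receptor, read 3477 and 335 on the controls, with a difference of -1.99 ± 1.08 (SE), ARB 2 being under the reference. Kdr, Flt1 and Icam2 were named after their values were seen.

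Of 11 ligands and partners of the Tie receptors 5 were measured, 1 lower and 4 higher on ARB than on ACEI by the readings as deposited. The lower 1 was Angpt2, and Pik3r1, among the higher, was under the reference on all 6 arrays. Angpt2, the ligand that endothelium itself releases, read 888 on control 1 and 73.0 on control 2, and both its ARB readings (138 and 311) were under the reference, so no ARB minus ACEI difference is given. Foxo1, a transcription factor restrained by Tie2 signalling, was at 1.498 and Akt1, the kinase between them, at 0.12. Of 16 partners of thrombomodulin and von Willebrand factor 10 were measured, 5 lower and 5 higher. Among the higher, Proc and F2 were under the reference on all 6 arrays. The brightest were Plat, tissue plasminogen activator (-1.15 for ARB minus ACEI), and the annexins Anxa2 (-0.54) and Anxa5 (-0.74), and their control pairs differed by -0.10, 0.02 and -0.32. Of 12 caveola genes 7 were measured, 3 lower and 4 higher on ARB. Cavin3, Flot1 and Dnm2 were at 0.30, 0.31 and 0.53, so the brightest probe sets of these genes did not show the difference seen for Cav1. Nos3, the endothelial nitric oxide synthase held by caveolin-1, was at -1.30 ± 0.78 (SE) and was 2.62 higher on control 1 than on control 2; it was named after its values were seen.

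Of 23 junction genes 6 were measured, 4 lower and 2 higher on ARB than on ACEI. Tjp1, the scaffold beneath occludin, read 5859 and 8595 on the controls and was at -0.37 for ARB minus ACEI, Jup at -0.55 and Pkp4 at -1.84, where ARB 1 was under the reference. Endothelial transcription factors gave 4 of 18, 1 lower and 3 higher, with Ets1 at -0.20, Klf4 at 0.99 and Sox17 at 1.49. Sox17 read 1249 on control 1 and 15.8 on control 2 yet 1967 and 2042 on the ARB arrays, so it was under the reference on control 2 and highest on the ARB arrays. Vasoactive and barrier genes were the best covered, 16 of 20, with 12 lower and 4 higher on ARB, beside 43.5% lower over all tested probe sets. Slc16a1, a lactate transporter, was called lower in the 4-array fit (-1.66, adjusted p = 0.0492, limma), while its other tested probe set was at -0.47. The brightest, Slc2a1 (the glucose transporter of the barrier), Slco1a4 (an organic anion transporter) and Alpl (alkaline phosphatase), differed by -0.11, 0.27 and -0.06. On control 2 these 3 were higher than on control 1, at 66763 against 33691, 79016 against 17074, and 42808 against 18569. On the other hand 9 of the 16 were more than 2-fold higher on control 1.

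The choice of probe set mattered for these partners as it did for Ocln. Of 15 endothelial and partner genes with 2 or more tested probe sets, Ocln and Vwf included, 8 had probe sets more than 2 log2 units apart in the control pair. Alpl ranged from -1.20 to 2.13, Cavin3 from -0.37 to 2.87, Anxa5 from -0.32 to 2.87 and Icam1 from 0.00 to 2.57. For ARB minus ACEI 2 of the 15 had such a span, with Anxa5 from -4.32 to -0.74 and Akt1 from -2.01 to 0.12. Slc2a1 ranged from -1.96 to -0.11 and Alpl from -1.98 to -0.06. The lower readings of Pecam1 and Cav1 each rest on 1 probe set.

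**Figure D4:**
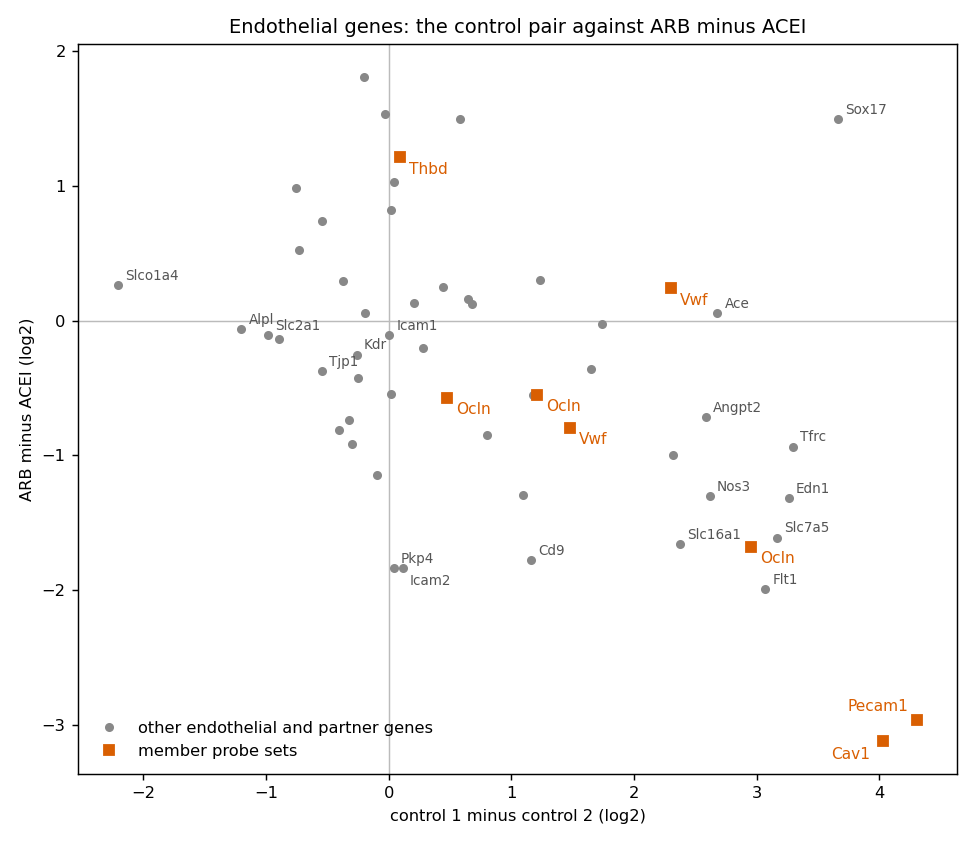
Log2 difference between control 1 and control 2 (horizontal) against ARB minus ACEI (vertical), which share no array, for the 8 tested probe sets of Pecam1, Cav1, Ocln, Vwf and Thbd (orange squares) and the brightest probe set of each tested partner gene (grey points, some named). Pecam1 and Cav1 lie at the lower right at 4.31 and -2.97 and at 4.03 and -3.12, and Slc2a1, Alpl and Slco1a4 lie to the left of 0 with ARB minus ACEI between -0.11 and 0.27.

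Markers of other cell types are given beside these results, as the sum of intensities over the list with 1 probe set per gene, array 1 before array 2. No list was tested, and not every list separated the groups. The counts of markers lower or higher on ARB than on ACEI stand beside 43.5% lower over all tested probe sets. Choroid plexus and ependyma markers (6 of 8 measured) summed to 50900 and 105800 on the controls, 66320 and 49260 under ACEI and 215900 and 214900 under ARB. The high ARB sums were mostly Ttr, at 202386 and 201474 there, while 4 of the 6 markers were lower on ARB than on ACEI and the list's median difference was -0.57. Ttr was called higher on ARB than on ACEI in the 4-array fit (2.47, adjusted p = 0.0239, limma). Astrocyte markers (7 of 11) summed to 25250 and 28220, 37700 and 49080, and 12550 and 13030 in the same order, with 6 of 7 lower on ARB than on ACEI. Oligodendrocyte markers (7 of 10) summed to 15080 and 7995, 20440 and 20370, and 6466 and 7030, with 7 of 7 lower. Mbp was called in the 4-array fit at -3.51 (adjusted p = 0.0204), and Aldoc and Glul of the astrocyte list at -2.84 and -1.86 (adjusted p = 0.0312 and 0.0392). Microglia and macrophage markers (12 of 15) ranged from 39130 to 48140 in control, from 23840 to 48000 in ACEI and from 16040 to 16870 in ARB, with 9 of 12 lower on ARB than on ACEI. Pericyte and smooth muscle markers (12 of 15) ranged from 37670 to 49090, from 21830 to 23390 and from 25370 to 28520, with 10 of 12 higher on ARB than on ACEI. Neuronal markers (14 of 17) ranged from 3042 to 5559, from 7071 to 7825 and from 8380 to 10610, with 10 of 14 higher. Of these 14, however, 7 were at or under the reference on ARB 1 and 5 on ARB 2. Platelet markers (4 of 8) ranged from 1851 to 2887, from 1446 to 1552 and from 2563 to 2669, with 4 of 4 higher on ARB than on ACEI. Erythroid markers (5 of 9) ranged from 50170 to 163600, from 48580 to 67770 and from 52870 to 62230, which overlap between all groups. No marker was at 0 on any array, but on ARB 1 every list save choroid plexus and ependyma held markers at or under the reference. The counts of higher and lower markers include these, although their direction is not measured. The part of these cell types in the differences of Pecam1, Cav1 and Thbd was not tested.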

How the data were processed

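RNA of brain capillaries was measured on 6 Affymetrix RG_U34A arrays, 2 per group. The deposited table held 1 linear intensity per probe set and array, without detection calls. How the authors' software corrected background and scaled the values is not stated in the labels or file headers. The arrays' trimmed means (2% off either end) lay near each other, so nothing further was normalized in the main fit. Their medians and spike signals did not lie near each other. Of 8799 probe sets, 59 controls were left out. Of the rest, 7006 had 1 gene symbol in the chip annotation, 308 several and 1426 none. Intensities became log2(value + 90), the dimmest 40% were left out and 5244 were tested with limma 3.58.1 (R 4.3.3), 1 mean per group, two-sided, Benjamini-Hochberg at 0.05. The fit was checked on simulated data with equal spread on all 6 arrays and no run day effect. That check does not cover an array that stands apart as control 2 does. Tables used Python 3.11.15 and pandas 2.3.3. Alternatives changed the offset, filter and normalization, added replicate or run day as a block, and left out each array. Named were every probe set of the 7 genes, the 3 brightest measured genes of each partner list, any called gene, and the 5 probe sets of named genes most like Pecam1. The genes and lists were chosen with earlier results of these data known. The number of arrays limits the precision, and an exact permutation test of 2 arrays against 2 cannot give a p below 0.333.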

Additional observations from a re-analysis of the deposited data

How the results depend on the processing

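Of 338 values of single probe sets under alternatives, 20 changed direction. Values that newly passed the threshold came only from fits with 1 control array left out or from the 4-array fit. For ARB minus ACEI, leaving out either control gave the same result as the 4-array fit, so these do not count as separate support. Medians over the 9 probe sets were judged apart from the 338, as kept where they moved by less than the spread between replicates (1.16). For 2 medians such a move changed the sign (ACEI versus control without control 2 at -0.42, ARB versus control without control 1 at 0.78). With the median intensity (358.3) as offset, limma called 3 probe sets for ACEI versus control, 4 for ARB versus control and 4 for ARB versus ACEI, where the fit of the report called none. With the replicate number as a block it called 2, 4 and 1. The number coincides with the fluidics protocol, but deviations of same-numbered arrays correlated at only 0.045, -0.015 and -0.004, so the numbers were not taken to pair the arrays, and the block called no endothelial probe set. Leaving out 1 array gave 0 to 261, 0 to 46 and 0 to 305 calls, and the 4-array fit, chosen after seeing the data, gave 305; the lone control array was assumed to vary like the other groups. Ocln AB016425_at for ARB versus control was 0.01 without an offset and 0.52 with run day as a block. Vwf U50044cds_g_at turned to -0.021 (quantile) and -0.083 (cyclic loess) against control and to -0.36 and -0.41 against ACEI; the cause was not tested. With 1 array left out, ACEI minus control ranged from -0.50 to 3.81 (Pecam1), -0.13 to 3.90 (Cav1), -0.42 to 0.79 (Ocln rc_AI638971_at), -0.77 to 0.71 and -0.84 to 1.46 (Vwf U50044cds_at and _g_at) and -0.62 to 0.16 (Thbd AF022742cds_at). ARB minus control ranged from -3.46 to 0.85 (Pecam1), -3.25 to 0.78 (Cav1), -1.55 to 1.41 and -0.97 to 0.24 (Ocln AB016425_at and rc_AI638971_at) and -0.60 to 1.70 (Vwf U50044cds_g_at), and ARB minus ACEI for the latter from -0.083 to 0.56. ARB minus ACEI lay between -3.47 and -2.14 for Pecam1, -3.56 and -2.21 for Cav1 and 0.82 and 1.61 for Thbd AF022742cds_at under every alternative run. Leaving out the dimmest 60% left Vwf untested.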
